A study of Arabidopsis thaliana with 20 samples.

Results

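The 378 siRNAs described here were listed above 0 RPM (reads scaled to the library total) in all 3 replicates of dark-grown *Arabidopsis* seedlings (W0 h) and of seedlings given 1, 3 or 6 h of white light (W1 h, W3 h, W6 h), and were listed at 0 in all 3 replicates after 12 h of light (W12 h). They were picked by that pattern from the 4255 siRNAs in the table, of which 3233 were above 0 in all 12 libraries from W0 h to W6 h. The 378 made up 11.7% of these, and the other 2855 stayed listed at W12 h. The levels up to W6 h and the zeros at W12 h are therefore what chose the siRNAs, and are given as a description with no test.

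The groups were seedlings kept in the dark (W0 h) and seedlings that had received 1, 3, 6 or 12 h of white light at 100 μE, each with 3 biological replicates. All were of the Col-0 accession, 4 d old and grown without light until then. RNA came from the aerial tissue of pooled seedlings, with all its cell types, so fewer cells of a type and less RNA per cell cannot be told apart. The third replicate of every group was built with another library kit (Small RNA v1.5) than the first and second, for which TruSeq was used. mRNA cleavage was read from 1 light library, an equal mix of light-treated seedlings, and 1 dark library, neither with a replicate.

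siRNAs are short RNAs cut from double-stranded RNA by Dicer-like enzymes and loaded into Argonaute proteins. In plants the longest class mostly arises from transposons and repeats and guides DNA methylation, while shorter classes, among them the phased siRNAs of *TAS* loci, can guide the slicing of mRNAs in the way miRNAs do. Seedlings that reach light after growth in darkness switch from an elongating to a leaf-opening, greening form, which is called de-etiolation.

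The zeros of the table did not behave as counts of 0 in single libraries. At each of the 5 time points every siRNA was at 0 in all 3 replicates or in none, and 0 siRNAs were at 0 in only 1 or 2 replicates. From dark to 12 h of light, 440, 468, 341, 451 and 935 siRNAs were at 0. The reads behind each value could be recovered from the steps of the values, and at every time point the reads of the 3 replicates of a listed siRNA summed to 15 or more. Exactly 15 was reached by 73, 78, 42, 70 and 93 siRNAs from W0 h to W12 h, and no siRNA was below it. Every listed siRNA also had at least 1 read in each replicate. A 0 at W12 h thus says that an siRNA was not listed there, and reads below those limits may have been present. A loss goes beyond what the table can show, and the 378 are called here the siRNAs not listed at W12 h. No level at W12 h and no fold change to it can be given for them.

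A further limit concerns 2 libraries. Replicate 1 of W3 h and replicate 1 of W1 h held the same number of reads for all 3618 siRNAs listed in both (100%), divided by different library totals. In the other 104 pairs among the 15 libraries at most 8.05% of the siRNAs had equal reads. Among the other sRNAs of the table, 9 of 186 above 1 RPM in both libraries had a ratio within 1% of that of the siRNAs. The siRNA values of these 2 libraries are thus 1 set of reads, and which time point they belong to is not known. The tests are given with both libraries and without them. Since listing needs 15 summed reads over the 3 replicates, which siRNAs were listed at W1 h and W3 h, and so the choice of the 378, may rest in part on these reads.

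Sequences were known for 51 of the 378 siRNAs, and 8 of these resembled an annotated miRNA. The sequences of 7, chosen after their values were seen, are printed to show how few bases set them apart from their miRNAs. Each is given 5′ to 3′ above or below the miRNA it resembles, and capitals mark bases that differ from the miRNA or lie past its end.
SRNA23731947: ttagattcacgcacaaactcgA
ath-miR403-3p: ttagattcacgcacaaactcg
SRNA22208264: tgacagaagagagagagcacC
ath-miR156j: tgacagaagagagagagcac
SRNA22206984: tgacagaaAagagtgagcacC
SRNA22208798: tgacagaagagagtgaAcacT
SRNA22217565: tgacagaagagTgtgagcacT
SRNA22223515: tgacagGagagagtgagcacT
ath-miR156a-5p: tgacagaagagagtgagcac
SRNA24059876: TtccTaaatgtagacaaagca
ath-miR158a-3p: tcccaaatgtagacaaagca

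SRNA23731947 was miR403-3p with an A added at its 3′ end, and miR403 is known to target *AGO2*, which encodes an Argonaute. SRNA22208264 had the sequence of miR156j with 1 base added. Of the siRNAs set against miR156a-5p, which targets *SPL* transcription factor mRNAs, SRNA22206984 carried the substitution G9A, SRNA22208798 G17A, SRNA22217565 A12T and SRNA22223515 A7G, with positions counted from 1 at the 5′ end of the miRNA. SRNA24059876 carried C4T against miR158a-3p and 1 further base at its 5′ end. In the TAIR10.1 genome, 8 of the 51 siRNAs had no exact match, and these included SRNA23731947, SRNA24059876 and all 4 siRNAs with a substitution against miR156a-5p. SRNA22208264 had 1 exact match, at chr5:17360758-17360778, on the strand opposite to the coding sequence of AT5G43270. The siRNAs had been mapped with up to 2 mismatches.

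By the mean of 3 replicates the miRNAs themselves were far more abundant than these siRNAs, and they were listed at every time point. miR156a-5p had 2409, 2660.0 and 64858 RPM at W12 h in replicates 1, 2 and 3, against 4566, 4220.3 and 76467 RPM at W0 h. miR403-3p had 550.4, 429.6 and 122 RPM at W12 h, against 1362, 1015 and 126 RPM at W0 h. Replicate 3, from the other kit, was far higher than replicates 1 and 2 for miR156a-5p and lower for miR403-3p, at both times. miR158a-3p averaged 13487 RPM at W12 h and miR156j 53.0 RPM (means of 3 replicates). For miR156j the single values were 2.43, 2.15 and 154 RPM at W12 h in replicates 1, 2 and 3. At W6 h they were 4.34, 2.13 and 160 RPM, so its means were set by replicate 3. At W6 h SRNA22208264 stood at 0.805% of the mean level of miR156j, a share that does not describe replicates 1 and 2. SRNA23731947 stood at 0.0429% of miR403-3p, and the other 5 stood between 0.00101% and 0.00463% of theirs. The miRNA values are relative to mapped reads of 20 to 24 nt. The siRNA values are relative to library totals inferred from the steps of the values, so these shares are approximate.

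The siRNAs not listed at W12 h were scarce in the dark. Their median level at W0 h was 0.478 RPM, with quartiles of 0.371 and 0.642 RPM, against 1.26 RPM (0.703 and 2.90 RPM) for the 2855 siRNAs that stayed listed and 0.895 RPM for all 3877 other siRNAs. Levels under 1 RPM were found for 329 of the 378 siRNAs (87.0%) and for 1136 of the 2855 (39.8%). In the single libraries of W0 h the median was 0.441, 0.435 and 0.340 RPM in replicates 1, 2 and 3 for the siRNAs not listed at W12 h, against 1.10, 1.14 and 0.737 RPM for those that stayed. In reads, the median siRNA not listed at W12 h had 26, 25, 27.5 and 25 reads over the 3 replicates in the dark and after 1, 3 and 6 h of light, against 69, 65, 73 and 64 for those that stayed. The replicate with the fewest reads had a median of 4 reads at W6 h in the siRNAs not listed at W12 h and of 7 in those that stayed.

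A few of the 378 were not scarce, and these were unevenly spread over the replicates. The highest was SRNA22580925, with 17.7, 22.0 and 0.0567 RPM in the dark, 17.3, 17.4 and 0.106 RPM after 1 h of light, 18.7, 18.99 and 0.287 RPM after 3 h and 24.2, 20.95 and 0.0514 RPM after 6 h in replicates 1, 2 and 3. It was high in replicates 1 and 2 and low in replicate 3 at every time, with at most 0.287 RPM there. SRNA561609 was the next, with 0.496, 0.380 and 26.7 RPM in the dark, 0.367, 0.111 and 24.1 RPM after 1 h of light, 0.396, 0.463 and 28.5 RPM after 3 h and 0.102, 0.161 and 28.5 RPM after 6 h, and was high in replicate 3 and low in replicates 1 and 2. Its sequence was not known, nor were those of SRNA1590126, SRNA16430902 and SRNA5343235, which had the same pattern. These 3 had between 13.1 and 20.8 RPM in replicate 3 and at most 0.606 RPM in replicates 1 and 2. SRNA5609413, SRNA8502633 and SRNA13704879 were the reverse, with 3.15 to 8.83 RPM in replicates 1 and 2 and at most 0.622 RPM in replicate 3. Of the 44 siRNAs not listed at W12 h with a mean of 1 RPM or more, 40 (90.9%) differed by at least 4-fold between replicate 3 and the mean of replicates 1 and 2, 20 of them in each direction. The same held for 1056 of the 1647 such siRNAs that stayed listed (64.1%). Over all levels it was 80 of 378 (21.2%) and 1330 of 2855 (46.6%). Replicate 3 is also the one made with the other kit, and kit and biological replicate cannot be told apart here.

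Whether the levels already changed before W12 h was asked of the 12 libraries from W0 h to W6 h, on all 3233 siRNAs above 0 in each of them. None of the 378 passed the test. With limma on log2(RPM + 0.1), replicate as a term and Benjamini-Hochberg adjustment, 0 were called at W6 h against W0 h, where 0.588% of all siRNAs tested were called. After 1 h and after 3 h of light 0 were called as well, where 0% of all siRNAs were. At an unadjusted p under 0.05, 14 of the 378 (3.70%) passed after 1 h against 4.39% of all siRNAs tested, 19 (5.03%) after 3 h against 4.79%, and 22 (5.82%) after 6 h against 10.5%. With a minimum mean of 1 RPM over the 12 libraries, limma called 0 of the 44 left. At the unadjusted threshold 3 (6.82%), 3 (6.82%) and 9 (20.5%) of the 44 passed after 1, 3 and 6 h. Of all 1691 siRNAs in that fit 3.78%, 4.02% and 12.8% passed. Which set passed more often at W6 h thus turned on the filter. edgeR and DESeq2 on the recovered reads also called 0 at each time. Without the W1 h and W3 h libraries that held the same reads, limma again called 0 at each time, and 15 (3.97%), 5 (1.32%) and 21 (5.56%) passed the unadjusted threshold after 1, 3 and 6 h, against 4.55%, 3.77% and 9.37% of all siRNAs in that fit. Only siRNAs that stayed at or above the limit of 15 summed reads enter this test, so larger falls among scarce siRNAs could not appear in it.

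The median change up to W6 h was near that of all siRNAs. The median log2 change of the 378 was -0.09 after 1 h, -0.02 after 3 h and -0.14 after 6 h of light, against -0.08, 0.00 and -0.14 over all siRNAs tested. At W6 h 240 of the 378 were below W0 h (63.5%), and 2134 of the 3233 (66.0%). The quartiles of the 378 were -0.37 and 0.12. The median standard error of a change was 0.35 for the 378 and 0.32 over all siRNAs tested. Replicate 3 differed from the others: the median ratio of W6 h to W0 h was 0.839 in replicate 1, 0.822 in replicate 2 and 0.986 in replicate 3 for the 378, and 0.820, 0.831 and 1.04 for the siRNAs that stayed listed. With each library rescaled to a median siRNA ratio of 1 to the W0 h library of its replicate, the median over all siRNAs was 0.01 and that of the 378 was 0.00.

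A steady decline was rare. The mean fell at every step from W0 h to W6 h in 28 of the 378 siRNAs (7.41%) and in 205 of the 2855 that stayed listed (7.18%), with the W1 h and W3 h steps sharing their replicate 1 reads. W6 h was below W0 h in all 3 replicates of 71 siRNAs (18.8%), against 689 (24.1%) of those that stayed, and above it in all 3 of 20 (5.29%), against 211 (7.39%). The 3 values at W6 h all lay below the 3 values at W0 h in 9 of the 378 (2.38%), where this held for 1.89% of all 3233. They all lay above in 2 (0.529%), where it held for 0.526%. The highest mean fell on W0 h in 132 of the 378 (34.9%), in 73 (19.3%) on W1 h, in 111 (29.4%) on W3 h and in 62 (16.4%) on W6 h, where the shares were 35.7%, 17.1%, 31.1% and 16.1% among those that stayed listed.

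None of the siRNAs with the largest fitted falls at W6 h passed the test. SRNA16343374 had 0.153, 0.161 and 0.565 RPM at W6 h in replicates 1, 2 and 3, against 1.27, 0.598 and 0.624 RPM at W0 h. Its log2 change was -1.33 ± 0.47 (SE), with an adjusted p of 0.301. SRNA19661278 had 0.966, 0.911 and 0.154 RPM at W6 h, against 2.15, 3.10 and 0.340 RPM at W0 h, and a log2 change of -1.18 ± 0.34 (adjusted p = 0.153). All 3 values of each siRNA were lower at W6 h than the W0 h value of the same replicate, and replicate 3 moved least in SRNA16343374. SRNA12005960 had a change of -1.08 ± 0.42 and was higher in replicate 3 at W6 h, with 0.153, 0.0536 and 2.47 RPM, against 0.551, 0.598 and 1.98 RPM at W0 h. SRNA4048286 had a change of -1.05 ± 0.35. SRNA22223515, the miR156-like siRNA with A7G, had 0.203, 0.268 and 0.308 RPM at W6 h, against 0.937, 0.543 and 0.397 RPM at W0 h, and a change of -0.95 ± 0.34 (adjusted p = 0.293).

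Leaving out replicate 3 brought 4 of the 378 past the threshold at W6 h, all lower, where 3.53% of all siRNAs tested were called lower in the same fit. The median change was then -0.16 for the 378, against -0.24 over all siRNAs tested. The 4 were SRNA16343374 (log2 change -1.93, adjusted p = 0.0194), SRNA12005960 (-1.77, adjusted p = 0.0470), SRNA11880804 (-1.61, adjusted p = 0.0287) and SRNA19661278 (-1.37, adjusted p = 0.0296). With all 3 replicates in the limma fit their adjusted p-values were 0.301, 0.360, 0.627 and 0.153. SRNA11880804 was named after its values were seen.

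Among the siRNAs with the highest changes, SRNA10443677 had 0.458, 0.375 and 0.720 RPM at W6 h, against 0.606, 0.326 and 0.0567 RPM at W0 h, with the largest step in replicate 3 and a change of 0.73 ± 0.44 (adjusted p = 0.592). SRNA23558512 stood at 0.254, 0.750 and 0.411 RPM at W6 h, against 0.496, 0.272 and 0.0567 RPM at W0 h, with a change of 0.72 ± 0.42. SRNA13370322 was higher at W6 h in every replicate, with 0.610, 0.375 and 0.925 RPM, against 0.386, 0.109 and 0.737 RPM at W0 h, and a change of 0.68 ± 0.30 (adjusted p = 0.434). SRNA3891764 had a change of 0.66 ± 0.35 and SRNA24715008 of 0.65 ± 0.48. The sequences of these 5 siRNAs were not known.

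The library totals of W12 h were near those of the dark. Inferred from the steps of the values, they were 18202597, 18822788 and 17579785 reads in replicates 1, 2 and 3. The 15 libraries ran over 17579785 to 20906003. At W0 h the totals were 18146072, 18407313 and 17639306 reads, and 3815 siRNAs were listed, against 3320 at W12 h. Whether depth accounts for the zeros was not tested. The siRNAs as a whole were lower at W12 h in replicates 1 and 2. Those that stayed listed had a median W12 h to W6 h ratio of 0.720, 0.763 and 0.966 in replicates 1, 2 and 3. All siRNAs together held 24495, 26992 and 27687 RPM at W12 h, against 36887, 33006 and 28307 RPM at W6 h, with replicate 3 nearly level.

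How often an siRNA dropped off the list at W12 h followed its reads at W6 h. Among the 3233 siRNAs above 0 in all 12 libraries up to W6 h, those with few reads dropped off most. Of the siRNAs with 15 to 19 summed reads at W6 h, 89 of 196 were not listed at W12 h (45.4%, 95% Wilson interval 38.6 to 52.4%), and of those with 20 to 29 reads 170 of 536 (31.7%). The share was 68 of 722 (9.42%) at 30 to 49 reads, 37 of 744 (4.97%) at 50 to 99 and 14 of 1035 (1.35%) at 100 or more. The fewest reads in a replicate followed the same order. With 1 to 4 reads in the poorest replicate of W6 h, 233 of 1029 siRNAs (22.6%) were not listed at W12 h, with 5 to 9 reads 143 of 1148 (12.5%), with 10 to 19 reads 2 of 567 (0.353%), and with 20 or more reads 0 of 489 (upper Wilson bound 0.779%). Within a range of summed reads that order did not always hold. At 15 to 19 summed reads, 70 of 161 siRNAs with 1 to 4 reads in the poorest replicate were not listed (43.5%). With 5 to 9 reads there it was 19 of 35 (54.3%). At 20 to 29 summed reads these were 90 of 273 (33.0%) and 80 of 263 (30.4%). At 100 or more summed reads, 12 of 138 with 1 to 4 reads in the poorest replicate were not listed (8.70%). With 5 to 9 reads it was 1 of 211, and with 10 or more 1 of 686. These intervals cover counting error only.

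siRNAs also dropped off the list at earlier times. Counted among the siRNAs listed at every time point before, so that the set shrinks from step to step, and with 1 to 4 reads in the poorest replicate of the last of these, 159 of 1337 (11.9%) were at 0 after 1 h, 69 of 1248 (5.53%) after 3 h, 91 of 965 (9.43%) after 6 h and 233 of 1029 (22.6%) after 12 h of light. With 5 to 9 reads in that replicate the shares were 8.87%, 3.82%, 6.26% and 12.5% over the same steps, again highest after 12 h. With 10 to 19 reads they were 0.734%, 0.187%, 0.631% and 0.353%. These last are 4, 1, 4 and 2 siRNAs, too few to rank the steps. The share after 3 h comes from libraries that share the reads of replicate 1. siRNAs at 0 at 1 time point alone and above 0 at the other 4 numbered 95 in the dark, then 79, 50, 80 and 378 after 1, 3, 6 and 12 h.

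The reads that each of the 378 would have had at W12 h at its W6 h level were set against the limits of the list. Under 1 read was expected in the poorest replicate of 31 siRNAs (8.20%) and under 15 summed reads for 17 (4.50%). At least 1 of these limits was missed by 47 siRNAs (12.4%), against 104 of the 2855 that stayed listed (3.64%). With the fall of the siRNAs that stayed listed applied to each replicate, 123 missed a limit (32.5%), against 196 of the 2855 (6.87%), and 98 missed the sum (25.9%). These are expected reads, and counts scatter around them, so a floor of 3 reads in the poorest replicate was used as well. Under 3 reads were expected in 138 of the 378 (36.5%, 95% Wilson interval 31.8 to 41.5%), and under 5 in 289 (76.5%). At the mean level of W0 h to W6 h, 56 were under 3 reads. With that floor or a sum under 15, 145 fell short (38.4%), against 513 of the 2855 (17.97%). With the fall of the siRNAs that stayed listed, 222 did (58.7%), against 650 (22.8%). No limit was missed by 331 siRNAs at the W6 h level and by 255 with the fall of the siRNAs that stayed listed. Their reads at W12 h are not known, so whether they fell by more than the other siRNAs was not tested. The fall applied leaves out the siRNAs that dropped off the list, so it may be smaller than that of all siRNAs.

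Of the 378, 2 had 10 or more reads in every W6 h library, and these are named after their values were seen. SRNA17673251 had 17, 17 and 28 reads in the dark in replicates 1, 2 and 3, 39, 19 and 16 after 1 h, 39, 28 and 38 after 3 h and 12, 11 and 37 after 6 h of light. At its W6 h level 55.6 summed reads were expected at W12 h, with 11.1 in the poorest replicate. It had 2 exact matches in TAIR10.1, at chr2:9084-9103 and chr3:14203055-14203074. Both lay in exon 1 of genes annotated as miscellaneous RNA (AT2G03875 and AT3G06365), on the same strand as the gene. Whether it is a fragment of such a transcript was not tested. Shifted by 2 bases, SRNA18951766 was listed at W12 h with 0.165, 0.531 and 0.569 RPM in replicates 1, 2 and 3, but at 0 at W6 h and W0 h. Capitals mark the stretch the 2 share.
SRNA17673251: ggGTTTAGACCGTCGTGAGA
SRNA18951766: GTTTAGACCGTCGTGAGAca
SRNA8322854 had 89, 70 and 6 reads in the dark, 94, 45 and 5 after 1 h, 94, 81 and 6 after 3 h and 94, 57 and 10 after 6 h of light, with 154 summed reads expected at W12 h. It was high in replicates 1 and 2 and low in replicate 3. Neither passed the test at W6 h, with log2 changes of -0.29 ± 0.38 (adjusted p = 0.862 in the limma fit) and 0.05 ± 0.26 (adjusted p = 0.967).

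At the edge of the choice, the 2 scarcest of the 378 were SRNA11977352, with a mean of 0.280 RPM over W0 h to W6 h, and SRNA16394444, with 0.292 RPM. SRNA11977352 had 0.305, 0.322 and 0.154 RPM at W6 h, which are 15 summed reads. Just outside were SRNA21139359 and SRNA22727412, which both averaged 0.270 RPM at W12 h, with 0.275, 0.478 and 0.0569 RPM in the 3 replicates of each. These are the lowest levels at W12 h among the 2855.

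Many siRNAs that overlap the 378 in sequence stayed listed. A stretch of at least 16 nt was shared between 29 of the 51 siRNAs of known sequence and 124 other siRNAs, of which 109 were above 0 in all 15 libraries. SRNA22208798 shared one with 50 siRNAs, and SRNA5609413 and SRNA11419702 with 14 each. The last 2 also shared 17 nt with each other, and their 3 most abundant relatives are printed below them. Capitals mark the stretch common to SRNA5609413 and SRNA11419702, and in the other 3 the stretch shared with SRNA11419702.
SRNA5609413: agctataTCTTGGTTGTCGGCACC
SRNA11419702: cctactTCTTGGTTGTCGGCACCa
SRNA3592664: aCCTACTTCTTGGTTGTCGGCACC
SRNA1351013: aactacaTCTTGGTTGTCGGCACC
SRNA1192195: aaCCTACTTCTTGGTTGTCGGCAC

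SRNA3592664 had 36.5, 31.5 and 2.33 RPM at W12 h in replicates 1, 2 and 3, against 75.2, 62.0 and 1.81 RPM at W0 h. SRNA1351013 had 36.0, 27.7 and 0.796 RPM at W12 h, against 68.7, 47.7 and 0.737 RPM at W0 h. Both were lower at W12 h in replicates 1 and 2 and slightly higher in replicate 3. SRNA1192195 had 1.54, 1.17 and 8.87 RPM at W12 h, against 3.64, 3.04 and 7.26 RPM at W0 h, with the same split. SRNA11419702 itself had 0.509, 0.482 and 0.0514 RPM at W6 h, against 0.937, 0.706 and 0.170 RPM at W0 h, and SRNA5609413 had 5.29, 5.09 and 0.103 RPM at W6 h, against 7.60, 6.14 and 0.170 RPM at W0 h. SRNA5609413 lay between genes at chr5:13989249-13989272 and SRNA11419702 between genes at chr3:17658761-17658784 (TAIR10.1), each at its only exact match.

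The *TAS2* siRNAs show how near a listed siRNA could lie, and were picked for this after their values were seen. Capitals mark the stretch each pair shared.
SRNA25110067: TTTGCATATACTCGAATACC
SRNA25350469: tTTTGCATATACTCGAATACC
SRNA25438712: ttTTTTACGGGGATAAGACTG
SRNA25264601: TTTTACGGGGATAAGACTGaa
SRNA25350469 carried 1 more base at the 5′ end than SRNA25110067 and had 0.769, 0.797 and 62.1 RPM at W12 h in replicates 1, 2 and 3, against 3.20, 2.44 and 65.9 RPM at W0 h. Its level was set by replicate 3 and was lower at W12 h mainly in replicates 1 and 2 (log2 change -1.17 ± 0.34, adjusted p = 0.0545 with limma). Without replicate 3, where far more of all siRNAs were called, the adjusted p with limma was 0.00342. With rescaled libraries in limma it was 0.235, and with edgeR 0.266. SRNA25264601 lay 2 bases downstream of SRNA25438712 in sequence. It had 0.659, 0.478 and 4.10 RPM at W12 h, against 0.827, 1.30 and 4.54 RPM at W0 h (-0.57 ± 0.28, adjusted p = 0.190 with limma). The adjusted p of SRNA25264601 was 0.0918 without replicate 3, 0.886 with rescaled libraries and 0.807 with edgeR. SRNA25110067 and SRNA25438712 matched TAIR10.1 once, at chr2:16539770-16539789 and chr2:16539844-16539864, on the strand opposite to *TAS2* (AT2G39681), a non-coding transcript that gives rise to phased siRNAs.

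Of the 109 overlapping siRNAs that could be tested, 13 (11.9%) were called at W12 h against W0 h, where 5.36% of all 2855 siRNAs tested were called (limma, adjusted p under 0.05). All 13 were lower, where 3.92% of all were called lower and 1.44% higher. With at least 20 shared nt, 2 of 49 were called (4.08%). The median log2 change of the 109 was -0.56, against -0.45 over all siRNAs tested. The median standard error was 0.31 for the 109 and 0.34 over all, so the shares called were not taken at equal power. Of the 13, 10 shared most with SRNA22208798, so they are not independent of one another. The most abundant, SRNA22211645, had 3161, 3155 and 1716 RPM at W12 h in replicates 1, 2 and 3, against 6484, 4630.1 and 1952 RPM at W0 h, with a log2 change of -0.59 ± 0.14 (adjusted p = 0.0345). SRNA22210401 had 1273, 1749.9 and 1939 RPM at W12 h, against 2305, 2695 and 2299 RPM at W0 h (-0.57 ± 0.13, adjusted p = 0.0249). SRNA22209405 had 43.9, 54.1 and 2470 RPM at W12 h, against 98.9, 102 and 2598 RPM at W0 h (-0.72 ± 0.19, adjusted p = 0.0439). All 3 were lower at W12 h in every replicate, and replicate 3 moved least. The lowest adjusted p, 0.0116, was that of SRNA804289, named after its values were seen, which overlapped SRNA7165412 and averaged 3.85 RPM at W12 h, against 8.73 RPM at W0 h. The count turned on the settings: 1 was called without the W1 h and W3 h libraries that held the same reads, 0 with edgeR, DESeq2 or rescaled libraries, 0 without the replicate term, 0 without replicate 1 or without replicate 2, and 59 (54.1%) without replicate 3, where 937 of all 2855 (32.8%) were called and 872 of these were lower. Over all 2855 siRNAs, 112 were called lower and 41 higher, but 8 lower and 91 higher with rescaled libraries.

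Length and first base could be compared only in part. In the supplementary sequence list of the study, which was available in part and was ordered by locus, 21 of 34 of the siRNAs not listed at W12 h were 24 nt long (61.8%, 95% Wilson interval 45.0 to 76.1%), against 149 of 456 of those that stayed listed (32.7%, 28.5 to 37.1%). Lengths of 20 nt were found in 2 of 34 (5.88%) and 113 of 456 (24.8%), and lengths of 21 nt in 7 of 34 (20.6%) and 110 of 456 (24.1%). An A at the 5′ end was found in 14 of the 21 (66.7%) and 92 of the 149 (61.7%) of 24 nt. For the other siRNAs the first base could be read from the order of their identifiers, which followed the alphabet of the known sequences with 0 exceptions. By that order 46.0% of the 378 began with A, 12.4% with C, 17.5% with G and 23.3% with T, against 43.2%, 12.0%, 15.6% and 28.2% of the 2855. The 2 sets also differ in level, and no test of these shares was made.

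Cleavage was asked of the degradome, which sequences the uncapped 5′ ends that a sliced mRNA leaves. A cleavage event was a site with a CleaveLand category of at most 2, a CleaveLand p of at most 0.05 and at least 5 reads, where a category of 0 or 1 means that no position of the transcript had more reads. Such an event was recorded for 15 of the 378 siRNAs (3.97%, 95% Wilson interval 2.42 to 6.44%), against 160 of the 2855 that stayed listed (5.60%, 4.82 to 6.51%) and 199 of all 3877 other siRNAs (5.13%). In the light library 11 had an event and in the dark library 9, with 5 in both, at 17 sites in 17 genes. The 15 siRNAs had mean levels of 0.294 to 1.28 RPM over W0 h to W6 h (median 0.431 RPM), against a median of 0.441 RPM for the other 363. No other sRNA had a cleavage event within 1 nt of any of the 17 sites. Records that missed the thresholds were not searched for this. The light library mixed all 5 light times, 24 h included, so cleavage at 12 h cannot be told apart from cleavage before it.

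The 5 siRNAs with a site in both libraries are shown with their sites, each written 5′ to 3′ as in the records. In the siRNA, capitals mark bases 10 and 11, between which an Argonaute cuts the paired strand, and in the site the base opposite base 10.
SRNA23731947: uuagauucaCGcacaaacucga
AGO2 site: aggaguuugugcGugaaucuaa
SRNA15263601: gagggagacGGaagagauagaauc
AT1G19660 site: gauucuauuuuuucCucucucuc
SRNA8142022: auggcagagUGaaugaaccgggau
AT1G37340 site: cucccgguucauucGcucugccau
SRNA7677998: aucguggauCUugggcgguacca
AT1G14940 site: agguaccgcuuaaggGaucggcgga
SRNA4751527: agaccaaggAUcugauggggaagg
AT3G30837 site: ccuuccuccagcUccuuggucu

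SRNA23731947, the miR403-3p sequence with an added A, met *AGO2* at chr1:11185222-11185243 (TAIR10.1, plus strand, exon 3, outside the coding sequence). The site held 650 of 1065 degradome reads of the transcript in light (61.0%) and 691 of 1106 in dark (62.5%), the top position in each (category 0). SRNA23731947 had 0.305, 0.161 and 0.360 RPM at W6 h, against 0.551, 0.272 and 0.340 RPM at W0 h, while miR403-3p averaged 641.1 RPM at W6 h. The reads at the site cannot be told apart between this siRNA and the miRNA whose sequence it contains.

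The other shared sites held a smaller part of the reads. At AT1G19660, listed under the synonym BBD2, SRNA15263601 had 158 of 8359 reads in light and 216 of 7192 in dark, at chr1:6802645-6802667 in exon 1 outside the coding sequence. At the pseudogene AT1G37340, SRNA8142022 had 52 of 166 reads in light and 44 of 146 in dark. At AT1G14940, SRNA7677998 had 18 of 96 in light and 42 of 161 in dark, at chr1:5155460-5155484 in the coding sequence of exon 1, with the poorest pairing of the 17 sites (Allen score 12). At the pseudogene AT3G30837, SRNA4751527 had 21 of 87 in light and 11 of 40 in dark. Each library was sequenced once, so no difference between light and dark was tested. SRNA4751527 had further sites in light alone, at the pseudogenes AT5G32825 (21 of 201 reads) and AT5G40605 (13 of 176 reads).

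In light alone, the siRNA with the largest share of its transcript's reads was SRNA7015962, at *ILR2* (AT3G18485), a gene named for the response to an auxin conjugate. Its site at chr3:6342224-6342247, in the coding sequence of exon 2, held 41 of 94 reads (43.6%). SRNA16722360 met *WIH1* (AT5G67600), which encodes a small cysteine-rich membrane protein, with 58 of 3551 reads. SRNA24059876, the miR158a-3p-like siRNA, met the thymidine kinase gene *TK1b* (AT5G23070) with 5 of 319 reads. SRNA15424431 and SRNA16903585 paired perfectly, since each has an exact match on the strand opposite to its target. SRNA15424431 met the rRNA gene AT2G01010 with 144 of 173141 reads, where 40 positions had more, and SRNA16903585 met the plastid locus ATCG00090 with 21 of 1252, where 14 had more. SRNA1443796 met the pseudogene AT3G42433 with 5 of 99 reads, where 2 positions had more. The sites of category 2 among the 17 came from the light library alone, and all had a CleaveLand p of 0.0494.

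The dark-only sites with a named gene are printed to show their pairing, with capitals as before.
SRNA24409539: uugauaaguAGauugccuuggc
bZIP16 site: ucugaggcaaugUgcuuaucug
SRNA25438712: uuuuuuacgGGgauaagacug
FTSZ1-1 site: ucgucuucuccCcguagacuu
SRNA24409539 met *bZIP16* (AT2G35530), a basic leucine zipper transcription factor, with 32 of 729 reads in dark at chr2:14923005-14923026, outside the coding sequence, where AT2G35520 overlaps on the other strand. SRNA25438712, the siRNA from *TAS2*, met *FTSZ1-1* (AT5G55280), a tubulin-like protein of chloroplast division, with 9 of 361 reads at chr5:22420749-22420769 in the coding sequence of exon 6. SRNA4654106 met AT5G15070 with 17 of 312 reads and SRNA4897389 met AT3G02555 with 8 of 538. All 4 sites were the top position of their transcript, alone or tied. The pairs scored 8 for SRNA24409539 and 9 for SRNA25438712 on the Allen scale, on which 0 is a perfect match.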

How the data were processed

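Small RNA values were deposited by the authors as RPM for each sRNA and library. The study's methods give a scaling to mapped reads of 20 to 24 nt for miRNAs. They state none for siRNAs, whose library totals were inferred here from the steps of the values. Reads were mapped by Bowtie 1.0.0 to TAIR10 per the submitters' processing notes, with up to 2 mismatches allowed for siRNAs. An sRNA counted as expressed, per the study's methods, with at least 5 reads at a time point in all 3 replicates. Of the siRNAs listed, 97.3% met this at 1 or more of the 5 time points used. Cleavage records of other content (target, category, p-value, alignment and reads by position) were deposited by the authors from CleaveLand4 4.3, 1 set per degradome library. The 24 h libraries were not used.

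RPM values were whole multiples of the value of 1 read in 100% of cases (tolerance 0.01 reads), which gave library totals of 17579785 to 20906003 and the reads behind each value. limma 3.58.1 (R 4.3.3) was fitted to log2(RPM + 0.1) with time point and replicate number as terms, over the 12 libraries up to W6 h (3233 siRNAs) and over 15 libraries (2855 siRNAs), with Benjamini-Hochberg adjustment at 0.05, two-sided. On the recovered reads, edgeR 4.0.16 (quasi-likelihood) called 42 and DESeq2 1.42.0 called 45 of the 3233 siRNAs at W6 h. Libraries of the same replicate number deviated together (lowest correlation 0.839), a measure that the kit of replicate 3 enters. The replicate numbers come from the sample labels. Intervals are Wilson 95% intervals, which hold no error but that of counting. Nothing in the labels says how the replicates were grown apart, so p-values measure the spread between these samples. The scripts were tested on simulated data.

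siRNAs named are the 8 most abundant of the 378, the 5 with the lowest and the 5 with the highest change at W6 h, all with a cleavage event, the 3 sharing sequence with most other siRNAs, and 2 on each side of the edge of the choice. All others, among them the miRNA-like siRNAs and SRNA804289, were named after their values were seen. The 378 siRNAs, the lists and the tests were chosen with earlier results of these data known. Sequences came from the study's supplementary list, held here in part, and from the cleavage records. Positions are exact matches to RefSeq TAIR10.1. The alternatives tried were the pseudocount, filters, the replicate term, rescaling, the count tools and leaving out replicates. Some sequence matches are not reported here.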

Additional observations from a re-analysis of the deposited data

How the results depend on the processing

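That none of the 378 siRNAs was called before W12 h held under every alternative run at W1 h and W3 h, and at W6 h except in leaving out a replicate, which gave 0 to 4. Their median change of -0.14 at W6 h was 4.56e-05 with rescaled libraries, -0.00736 with edgeR and -0.000881 with DESeq2, and -0.16 to -0.08 with a replicate left out. Asking for at least 3 reads in all 12 libraries left 151 of the 378, and at least 5 reads left 23. The difference in median log2 level at W0 h of -1.24 was -0.78 against every other siRNA. The 138 siRNAs with under 3 expected reads became 56 at the mean level of W0 h to W6 h, 31 under 1 read, 289 under 5 reads and 17 by a sum under 15. The 15 siRNAs with a cleavage event became 8 at a CleaveLand p of at most 0.01 and 5 in both libraries.

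Without the replicate block, 0 of the 13 overlapping siRNAs called at W12 h were called. The count was also 0 with rescaled libraries, edgeR or DESeq2, and 2 without the eBayes trend. It was 5 with a pseudocount of 0.01 RPM and 24 with a minimum mean of 1 RPM. With no filter and zeros included it was 45, of which 38 were lower and 7 higher. With at least 20 shared nt it was 2 of 49 tested (4.08%), where 5.36% of all siRNAs were called. Leaving out a replicate gave 0 to 59 (59 without replicate 3). Where no share over all siRNAs is printed, no excess can be read from a count. The count was 1 without the 2 libraries that held the same reads. That last alternative, the sum of reads and the scaled expectation were chosen after seeing the data. The cause of these shifts was not tested. Depth limits every level here: 1 read is worth 0.0478 to 0.0569 RPM, and levels below 15 summed reads cannot be seen.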
